A study of Homo sapiens with 4 samples.

Results

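The genes described here encode readers of acetylated chromatin and the kinases and regulators that release RNA polymerase II into elongation: BRD2 and BRD3 of the BET family, CDK9 with its cyclins CCNT1 and CCNT2, the inhibitor HEXIM1, and CDK12 with its cyclin CCNK. They were picked by name, 8 of the 57773 genes in the authors' deposited table, and all 8 had a group mean of at least 1 RPKM (read counts scaled to transcript length and to the size of the library). The study set cells given 1 µM OSSL_325096, whose structure is not described in the labels, against cells given only the solvent, DMSO. Each treatment had 2 libraries, 1 from KMS12PE and 1 from KMS11, both established human lines of multiple myeloma, a cancer of antibody-secreting plasma cells. How long the cells were exposed is not stated in the labels. The values are the authors' own comparison over both lines, so each gene has 1 log2 fold change, 1 p-value and the mean RPKM of whichever treatment had the higher mean. Values of single libraries, the depth of each library and changes within one line were not analysed here. The other BET genes were not analysed here either.

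BET proteins bind acetylated histone tails through paired bromodomains and help bring the elongation kinase P-TEFb to promoters and enhancers. P-TEFb is CDK9 bound to cyclin T1 or T2. It phosphorylates the polymerase and the pausing factors DSIF and NELF, which lets a paused polymerase proceed. Much of the P-TEFb in a cell is held inactive by HEXIM1 in a particle built on the 7SK RNA. CDK12 with cyclin K phosphorylates the polymerase further into gene bodies and is known for sustaining long genes, among them genes of the DNA damage response. In myeloma cells BET proteins are known for maintaining MYC transcription, and HEXIM1 mRNA is widely used as a marker that increases when BET proteins are inhibited.

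None of the 8 genes was separated from no change. In the authors' deposited table the highest was HEXIM1, with 1.30-fold more RNA with OSSL_325096 than with DMSO, and the lowest was CCNT2, with 1.34-fold less. Both BET genes, CDK9 and cyclin K lay between these values. The p-values of the authors' comparison ran from 0.684 to 0.985, and 0 of 8 had a Benjamini-Hochberg adjusted p under 0.05 when the deposited p-values were adjusted over all 11324 genes of at least 1 RPKM. Among those 11324 genes, 0 (0%) had an adjusted p under 0.05 and 5 (0.0442%) had an unadjusted p under 0.05. Of the 8 genes, 0 were 1.5-fold higher and 0 were 1.5-fold lower, while 4.95% of the 11324 genes were at least 1.5-fold higher, 4.95% at least 1.5-fold lower and so 9.9% past this fold either way.

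The promoters of the highest and the lowest of the 8 genes are shown because these 2 genes mark the ends of the range of fold changes. Each sequence is the 250 bases before the start site in RefSeq, on build GRCh38.p14, read 5′ to 3′ on the strand of the gene. The HEXIM1 sequence is chr17:45148225-45148474 (plus strand) and the CCNT2 sequence is chr2:134918572-134918821 (plus strand). Capitals mark matches, on either strand, to the TATA box TATAAA, the CCAAT box CCAAT and the GC box GGGCGG, and no matches shared a base in these 2 sequences.
HEXIM1: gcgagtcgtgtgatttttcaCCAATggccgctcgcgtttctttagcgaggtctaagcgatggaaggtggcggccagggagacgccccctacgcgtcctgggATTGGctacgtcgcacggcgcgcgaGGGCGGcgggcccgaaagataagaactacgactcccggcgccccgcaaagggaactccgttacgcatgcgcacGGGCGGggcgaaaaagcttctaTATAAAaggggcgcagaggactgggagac
CCNT2: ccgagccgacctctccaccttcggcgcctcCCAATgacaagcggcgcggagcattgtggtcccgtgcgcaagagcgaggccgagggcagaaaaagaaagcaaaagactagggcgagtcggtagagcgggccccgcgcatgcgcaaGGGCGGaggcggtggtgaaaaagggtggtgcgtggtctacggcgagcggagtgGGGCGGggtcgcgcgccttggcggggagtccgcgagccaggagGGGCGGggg
The HEXIM1 sequence held TATAAA, beginning 29 bases before the start, where TATA boxes usually lie. All 8 genes were found in the RefSeq table, with 12 start sites in all. Of these 12 windows 1, that of HEXIM1, held TATAAA, against 10.7% of 35116 promoter windows of this length. That share counts a match anywhere in the window on either strand, so it is not the share with a match at this position. The core of the heat shock element, GAANNTTC, had 0 matches in these 12 windows and was in 5.78% of all windows. CCAAT was in 32% and GGGCGG in 42.6% of all windows. The GC content of the printed windows was 62.4% for HEXIM1 and 69.6% for CCNT2.

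The 2 BET readers differed in level but neither had a fold change past its error. BRD2 (ENSG00000204256, hg19 chromosome 6, 32936437 to 32949282, plus strand) had the highest level of the 8, with 31.1 RPKM in the treatment with the higher mean. Its log2 fold change, as given in the authors' deposited table, was 0.02 (p = 0.985). The implied standard error, obtained from the size of the fold change and its p-value on the assumption of a two-sided normal test, with 2 libraries against 2, was 0.95. The 95% interval ran from -1.85 to 1.88, or from 3.60-fold lower to 3.69-fold higher with OSSL_325096. After correction for a trend across all genes with GC content, length of the transcript and expression, the value of BRD2 was -0.13, so its sign depended on that correction. The exons of BRD2 share 55 bases in GENCODE 44 with those of HLA-DMA, a neighbour on the opposite strand listed at 12.6 RPKM. They also share bases with a pair of noncoding genes listed at 0.39 RPKM or less.

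BRD3 (ENSG00000169925, chromosome 9, 136895427 to 136933657, minus strand) was listed at 6.32 RPKM, so that BRD2 had 4.91 times its level per length. The log2 fold change of BRD3 in the authors' deposited table was -0.27 (implied SE 1.08, p = 0.798), with a 95% interval from -2.38 to 1.83. The difference between the log2 fold changes of BRD2 and BRD3, 0.29, was smaller than either standard error. It was not tested, since the libraries that both genes share were not analysed singly. At the 3′ end of BRD3 the gene LINC00094 runs on the opposite strand, and their exons share 1283 bases in GENCODE 44 on hg19. The authors' deposited table gives LINC00094 3.78 RPKM and a log2 fold change of 0.06. Whether the counting used strand is not stated in the sources used, so reads in the shared bases cannot be assigned to one gene.

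**Figure D1:**
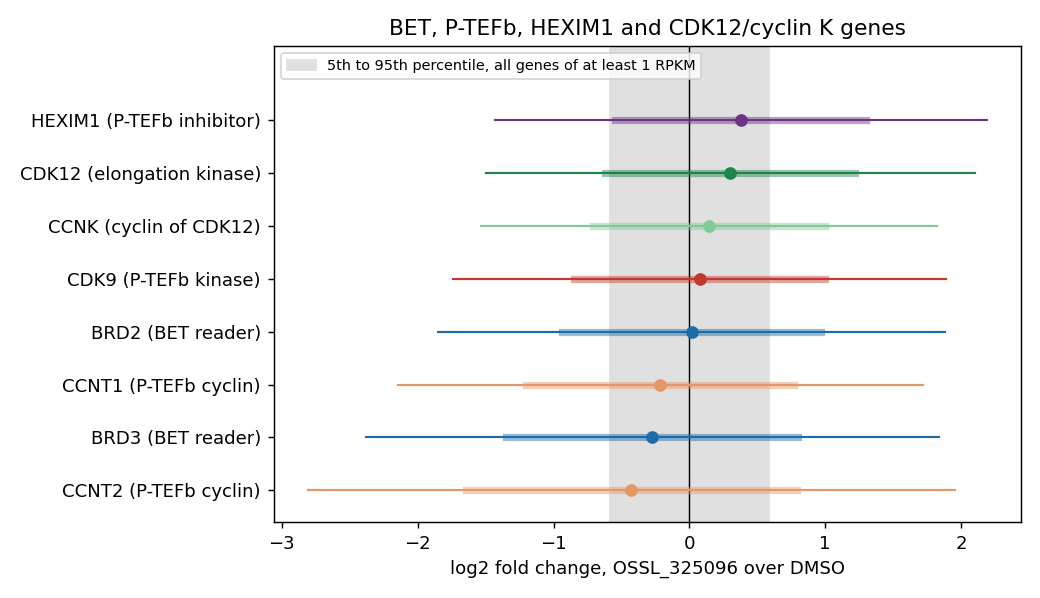
The horizontal axis is the log2 fold change, OSSL_325096 over DMSO, for each of the 8 genes (vertical axis, highest at the top), with thick bars of 1 implied SE and thin bars of the 95% interval. All 8 points lie inside the grey band, the 5th to the 95th percentile of the 11324 genes (-0.58 to 0.58), and all 8 intervals include 0.

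Among the P-TEFb genes the kinase had more RNA per length than either cyclin. CDK9 (ENSG00000136807, chromosome 9, 130547958 to 130553066, plus strand), the catalytic subunit, was listed at 24.98 RPKM, which was 3.22 times the 7.77 RPKM of CCNT1. Its log2 fold change in the authors' deposited table was 0.07 (implied SE 0.93, p = 0.936), and after the same correction for GC content, length and expression it was -0.10, so this sign too depended on that correction. The 95% interval of CDK9 ran from 3.35-fold lower to 3.71-fold higher with OSSL_325096.

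Both cyclin T genes had negative fold changes. CCNT1 (ENSG00000129315, chromosome 12, 49082247 to 49110681, minus strand), the cyclin T of most P-TEFb in many human cells, stood at -0.21 on the log2 scale in the authors' deposited table (implied SE 0.99). The p-value of CCNT1 was 0.829. CCNT2 (ENSG00000082258, chromosome 2, 135675805 to 135716912, plus strand), the related cyclin T2, had -0.43 there, with an implied SE of 1.22. The p-value of CCNT2 was 0.725. CCNT2 had the lowest level of the 8, 2.05 RPKM, and CCNT1 had 3.80 times that level. CCNT2 also had the widest 95% interval, from 7.02-fold lower to 3.88-fold higher. These 2 genes had the most AT-rich transcripts of the 8, with a median GC content of 40.7% for CCNT1 and 41.1% for CCNT2. Corrected for that trend, CCNT1 had -0.06 and CCNT2 -0.20 on the log2 scale.

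HEXIM1 (ENSG00000186834, chromosome 17, 43224684 to 43229468, plus strand), the protein that keeps P-TEFb inactive in the 7SK particle, had the highest fold change. In the authors' deposited table it had 14.9 RPKM and a log2 fold change of 0.38 (implied SE 0.92, p = 0.684). The 95% interval ran from -1.43 to 2.19, that is from 2.70-fold lower to 4.55-fold higher with OSSL_325096, so neither no change nor a several-fold change could be told apart from the value seen. HEXIM1 ranked above 87.2% of the 11324 genes by log2 fold change, and 24.4% of them had a larger fold change in either direction. Among the 969 other genes with a level within 1.2-fold of that of HEXIM1, the 5th and 95th percentiles of the log2 fold change were -0.38 and 0.58, and 84.7% of these genes were below HEXIM1. Corrected for the trend, the value was 0.36. HEXIM1 is a gene of 1 exon in GENCODE 44, with a transcript of 3625 bases of which 1077 are coding. Its interval in the authors' deposited table begins 1158 bases before that model on hg19.

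The rest of the 7SK particle did not share one direction. HEXIM2, the paralog of HEXIM1, had -0.37 on the log2 scale in the authors' deposited table (8.55 RPKM, implied SE 1.22). LARP7, which binds and protects the 7SK RNA, had -0.08 (9.15 RPKM, implied SE 1.04). MEPCE, the enzyme that caps the 7SK RNA, had 0.47 (34.3 RPKM, implied SE 0.82). Of these 3 genes, 0 were 1.5-fold from no change and 0 had an unadjusted p under 0.05. Over the 11324 genes these shares were 9.9% and 0.0442%, so counts of 0 among 3 genes say little.

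CDK12 and its cyclin both had positive values. CDK12 (ENSG00000167258, chromosome 17, 37617764 to 37721160, plus strand) had 6.53 RPKM in the authors' deposited table and a log2 value of 0.30 (implied SE 0.92, p = 0.744). CCNK (ENSG00000090061, chromosome 14, 99947506 to 100001381, plus strand), which encodes cyclin K, had 8.27 RPKM and a log2 value of 0.14 there. Its implied SE, 0.86, was the smallest of the 8, and its p-value was 0.867. Corrected for the trend, CCNK had 0.22, but 0.07 when the canonical transcript gave the GC content and length. The 95% interval of CDK12 ran from 2.83-fold lower to 4.29-fold higher, and that of CCNK from 2.90-fold lower to 3.54-fold higher with OSSL_325096. The value of CCNK is uncertain for another reason. CCDC85C, on the opposite strand, overlaps it, and the exons of the 2 genes share 4893 bases in GENCODE 44. In the authors' deposited table CCDC85C had 9.71 RPKM and a log2 value of 0.69. How far its reads enter the value of CCNK was not tested.

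By level, the order of the 8 genes was BRD2, CDK9, HEXIM1, CCNK, CCNT1, CDK12, BRD3 and CCNT2. The highest and the lowest were 15.2-fold apart per length. The level of BRD2 was above that of 86.8% of the 11324 genes and the level of CCNT2 above that of 15.3%. CCNK, CCNT1, CDK12 and BRD3 lay close together, between 8.27 and 6.32 RPKM. The spread of levels between libraries was not available for a test of the neighbours in this order, and the RPKM of 2 genes can come from different treatments.

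**Figure D2:**
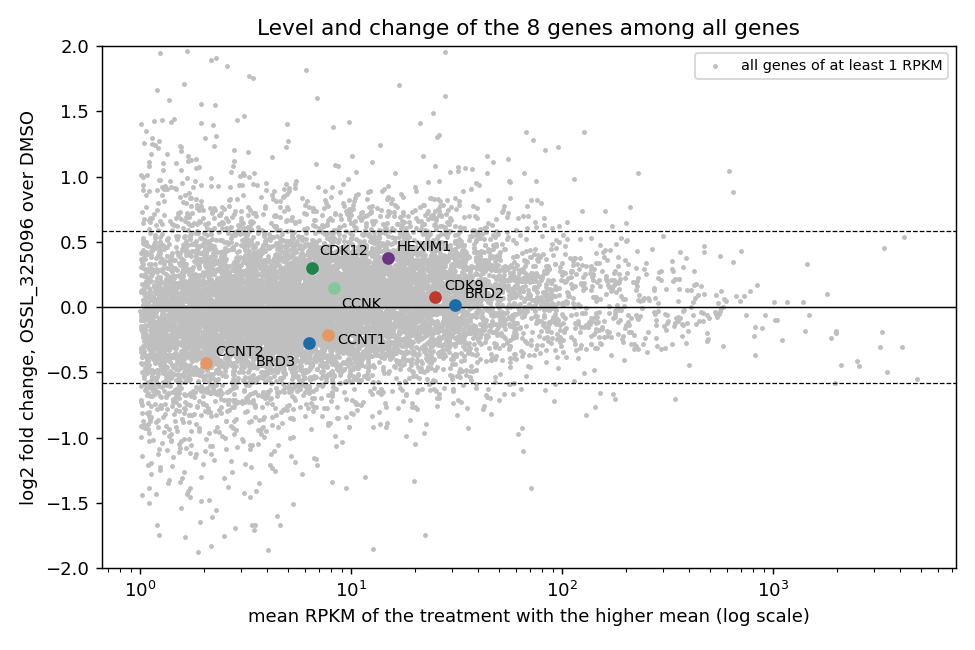
Mean RPKM of the treatment with the higher mean (horizontal axis, log scale) against the log2 fold change of OSSL_325096 over DMSO (vertical axis), for the 8 genes (coloured, by name) and all genes of at least 1 RPKM (grey). Dashed lines mark 1.5-fold, which none of the 8 reached, and 24 genes beyond 2 on the log2 scale are outside the plot.

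Of the 8 genes 5 were above 0 and 3 below, with a median log2 fold change of 0.05. Of all 11324 genes 51% were above 0, with a median of 0.01. The 2 genes past a ratio of 5 to 4 in either direction were HEXIM1 and CCNT2, and 31.6% of the 11324 genes were past that ratio. The implied standard errors of the 8 ran from 0.86 to 1.22, against a median of 1.10 over the 11324 genes. At these errors a member needed a difference of 3.20-fold to 5.22-fold to reach an unadjusted p of 0.05. The data therefore do not show that these genes were unaffected, only that smaller changes were not detectable in the authors' comparison. Over the 11324 genes the 5th and 95th percentiles of the log2 fold change were -0.58 and 0.58, both smaller in size than the median error. In the authors' comparison 5 of these genes (0.0442%) had an unadjusted p under 0.05. Exact p-values with no changed gene would put a share of about 0.05 there, so the deposited p-values were larger than exact ones. The implied errors and the 95% intervals drawn from them may therefore be too wide. Whether the comparison paired the libraries of a line is not stated in the sources used. Whether the errors also hold the difference between the 2 lines was not tested.

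The fold changes of all genes followed in part the GC content of their transcripts (Spearman correlation 0.47). Among the 8 genes, which were spread over the range of GC content, this correlation was 0.07. The fitted trend with GC content, length and expression took up 15.8% of the variance over all genes. When the genes were divided by GC content into 5 groups of equal size, the group of lowest GC content, which held CCNT1 and CCNT2, had a median log2 fold change of -0.17. The group of highest GC content, which held BRD3, had 0.23. BRD3 thus had a negative value among genes that were mostly positive, and with the trend removed it had -0.47, the lowest of the 8. That value rests on the median over 6 annotated transcripts (GC content 61.1%). With the canonical transcript in its place (GC content 52.3%), a choice made after the data were seen, BRD3 had -0.36. A GC content of 52.3% lies in the range of the middle group (47.3% to 53.4%). The place of BRD3 in the highest group thus depends on the transcripts used. HEXIM1 (GC content 48.3%) and CDK12 (48.9%) fell in the middle group, where the median was -0.0028, and had values of 0.36 and 0.32 with the trend removed. What lies behind the GC trend was not tested.

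**Figure D3:**
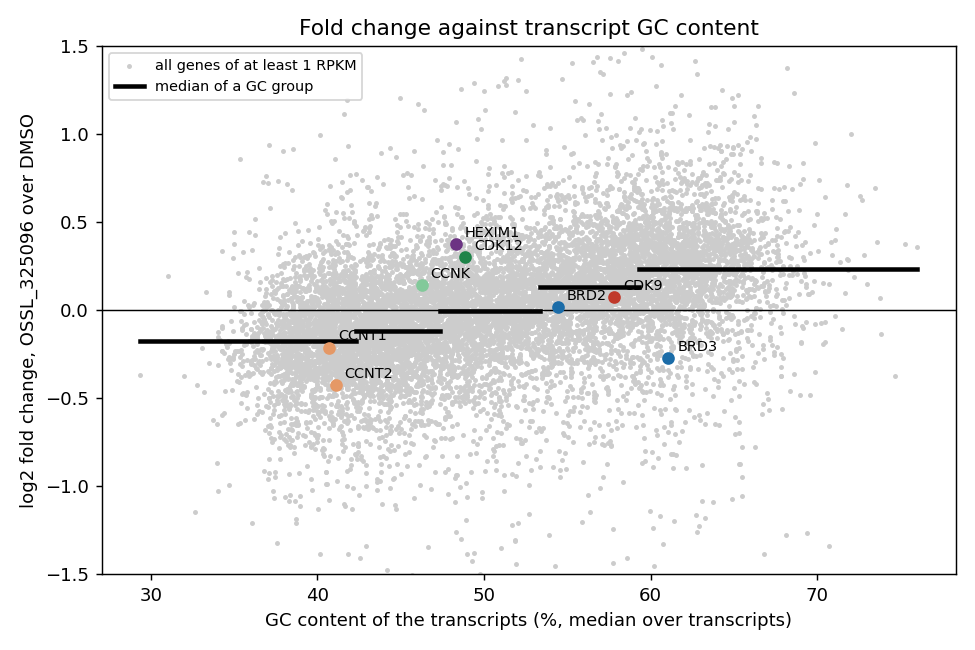
Median GC content of a gene's annotated transcripts (horizontal axis, percent) against the log2 fold change of OSSL_325096 over DMSO (vertical axis), for the 8 genes (coloured) and all genes of at least 1 RPKM with a GC content (grey). Black lines are medians of 5 equal groups of genes by GC content, running from -0.17 to 0.23, and 53 genes beyond 1.5 on the log2 scale are outside the plot.

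The other genes of the pathway were described by lists of 107 symbols in 9 groups, with no test of a list. In none of the 9 lists did a member have an unadjusted p under 0.05, which only 5 of the 11324 genes (0.0442%) had. The list medians lay between -0.10 and 0.24, against 0.01 over all genes. The largest, 0.24, was that of the 12 subunits of RNA polymerase II, of which 9 were above 0 and 0 past 1.5-fold. Of all 11324 genes 51% were above 0 and 9.9% past 1.5-fold either way. POLR2A, the catalytic subunit whose tail P-TEFb and CDK12 phosphorylate, had 0.50 in the authors' deposited table (implied SE 0.87). POLR2L, POLR2E and POLR2I, smaller subunits, had 0.41, 0.39 and 0.26 there. Corrected for the trend, the median of the subunits was 0.11, and the largest of the 9 was then 0.16, that of the other elongation factors.

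Among the pausing factors, the super elongation complex and the other elongation factors the values were spread about 0. The 6 genes of the pausing factors NELF and DSIF had a median of 0.13, with 4 above 0 and 0 past 1.5-fold. SUPT5H, the larger subunit of DSIF, had the highest, 0.29 in the authors' deposited table, followed by NELFA (0.22) and NELFB (0.21), with SUPT4H1, the smaller subunit of DSIF, at -0.12. Of the super elongation complex, which carries P-TEFb to genes, 8 of 9 genes had at least 1 RPKM, with 3 above 0 and a median of -0.07. At least 1.5-fold higher was 1 of the 8 and at least 1.5-fold lower 1. Of the 11324 genes 4.95% were that much higher and 4.95% that much lower. The related subunits MLLT1 and MLLT3 lay at opposite ends, with 0.61 for MLLT1 (32.6 RPKM, implied SE 0.91) and -0.61 for MLLT3 (4.87 RPKM, implied SE 1.08) in the authors' deposited table. EAF2, a partner of the ELL proteins, had -0.44 there and the elongation factor ELL 0.41. Of 12 other elongation factors 8 were above 0 (median 0.04, and 0.16 corrected for the trend), and 1 was past 1.5-fold, TCEA1, the gene of the factor TFIIS that rescues arrested polymerase, with -0.64 in the authors' deposited table (82.7 RPKM, implied SE 0.93). The next by size were IWS1 (0.23), CTR9 of the PAF1 complex (0.23) and TCEB3 of elongin (0.16).

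The genes of other kinases and bromodomain proteins with at least 1 RPKM were within 1.5-fold, a fold that 9.9% of the 11324 genes were past. Of 9 other transcriptional kinase and cyclin genes 3 were above 0, with a median of -0.10. CCNL2 and CCNL1, the cyclins L, had -0.34 and -0.34 in the authors' deposited table, CDK7, the kinase of TFIIH, had -0.25 and its assembly factor MNAT1 -0.12. CDK13, the closest relative of CDK12, had 0.05 there. Of 29 other bromodomain genes 28 had at least 1 RPKM, 14 above 0 and 14 below (median 0.02). KAT2A, a histone acetyltransferase, had 0.56 in the authors' deposited table and BRD9, of a SWI/SNF complex, 0.42. ATAD2, an ATPase with a bromodomain, had -0.50 there and PHIP -0.45.

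Transcripts that depend on these proteins were listed in 2 groups. Of 17 short-lived transcripts whose genes are textbook cases of paused polymerase, 16 had at least 1 RPKM. Among these 16, 8 were above 0 and 8 below, with a median of 0.02. At least 1.5-fold higher were 2, FOSL1 and DUSP2, and 0 were at least 1.5-fold lower. The share of the 11324 genes was 4.95% in each direction. FOSL1 had 1.44 in the authors' deposited table, at a level of 1.44 RPKM and with an implied SE of 2.13. DUSP2, a MAP kinase phosphatase, had 0.75 (25.7 RPKM, implied SE 1.03), IER3 0.50 and FOSL2 -0.42 there. MYC, chosen here as the best known BET target in myeloma, had 0.31 (373 RPKM, implied SE 1.03). Of 10 long DNA damage response genes that depend on CDK12 and cyclin K, 2 were above 0 and 8 below (median -0.07), against 51% of all genes above 0, and 0 were past 1.5-fold. Corrected for the trend, the median of these genes was 0.03. MDC1, an adaptor at DNA breaks, had 0.44 in the authors' deposited table, FANCI of the Fanconi pathway -0.43, ORC3 -0.33 and the kinase gene ATM -0.26.

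**Figure D4:**
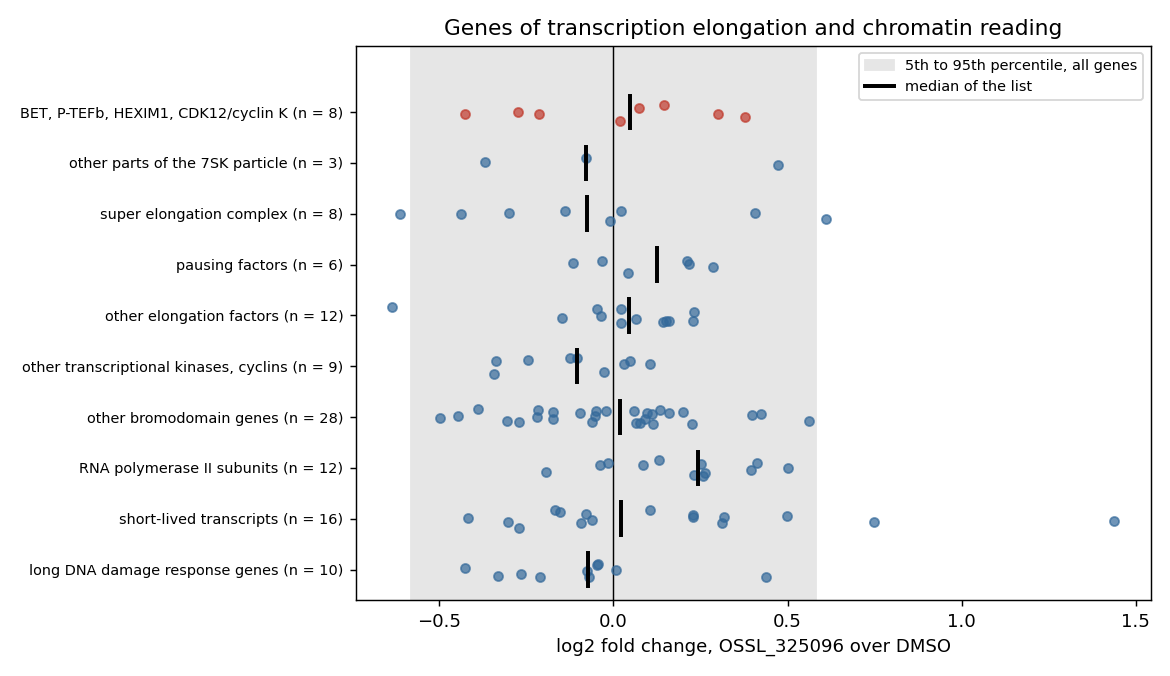
The horizontal axis is the log2 fold change, OSSL_325096 over DMSO, of the genes of at least 1 RPKM in each list (points; the 8 genes in red at the top), with the list median as a black bar. The grey band is the 5th to the 95th percentile of all genes (-0.58 to 0.58), and list medians run from -0.10 to 0.24.

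Plasma cell genes, which mark the cell type that the labels give, were expressed. All 9 plasma cell markers looked at had at least 6.26 RPKM, up to 189 RPKM for MZB1, a chaperone of immunoglobulin assembly. Of these 9 genes 2 were above 0 and 7 below, with log2 values from -0.73 to 0.60 in the authors' deposited table, and 4 were past 1.5-fold. These were SDC1 (0.60) above 0, and CD38 (-0.73), IRF4 (-0.67) and TNFRSF17 (-0.66) below it. Of the 9 markers, 0 had an unadjusted p under 0.05. Over the 11324 genes 51% were above 0, 9.9% were past 1.5-fold either way and 0.0442% had an unadjusted p under 0.05. Whether the markers differ as a list from all genes was not tested. Of 10 markers of other cell types 9 were matched to the table and 8 of these were under 1 RPKM, CD3D being listed at 0. The exception was the epithelial marker EPCAM, with 15.8 RPKM and a log2 value of -0.18, as the authors' deposited table gives it.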

How the data were processed

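RNA was measured by sequencing in 4 libraries, 2 per treatment, 1 from each line. Per the labels' protocols, the libraries were made from mRNA enriched on oligo(dT) beads. Per the series' design text, hg19 was the reference for mapping, and Biomedical Genomics Workbench 5 gave the RPKM and the comparison. The sources used here do not state the counting rule, strand, annotation version or test. The deposited table has 6 value columns: RPKM (the higher group mean, per the file headers), the log2 fold change, the same as a signed fold score, and deposited p-values (unadjusted, false discovery rate, Bonferroni). It has 0 columns of single libraries, so the planned fits of single libraries, lines as a block and left-out replicates were not run, and the authors' p-values took their place. The deposited false discovery rate was 0.999995 for all 8 genes, as it was for each of the 23130 genes with a fold change. No counting interval can be given because the depth is unknown. Nothing in the labels says whether the libraries of a line came from separate cultures.

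Of 23130 genes with a fold change, 11324 reached a minimum of 1 RPKM and were kept, and Benjamini-Hochberg adjustment was recomputed over them. The direction (positive is higher with OSSL_325096) was read from the title of the table, as no column gives it. The implied SE and its 95% interval are exact only for a two-sided normal test, and only if the deposited p-values are themselves exact. The trend was a regression of degree 3 in GC content, length and expression (GENCODE 44 on GRCh37, 98.1% of genes matched). The steps were tested on simulated data with smaller errors and larger changes than those of the 8 genes. That checked the computation, not what these data could detect. The rule for named genes takes all 8 members, all of the 7SK list and up to 4 genes per other list with the largest absolute fold change. CDK13, MYC, LINC00094, CCDC85C, HLA-DMA, MZB1, CD3D, EPCAM and the 4 plasma cell markers past 1.5-fold fall outside this rule and were added once their values had been seen. The members and lists were chosen with earlier results of these data known. Promoter sequences are from RefSeq on GRCh38.p14 and were matched by symbol. Python 3.11.15, pandas 2.3.3, numpy 2.4.6, scipy 1.17.1 and matplotlib 3.10.9 were used.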

Additional observations from a re-analysis of the deposited data

How the results depend on the processing

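After correction for GC content, length and expression, the log2 fold changes of BRD2 and CDK9 changed sign, to -0.13 and -0.10. With GC content and length taken from the canonical transcript, an alternative added after the data were seen, they were -0.17 and -0.084. The other 6 genes kept their sign under both corrections, and all 8 kept it when centred on the median of all genes (0.01). No member was called under any alternative run, and none was 1.5-fold or 2-fold from no change. At a lower threshold, a ratio of 5 to 4, the count was 2, against 0 at 1.5-fold. The median of the 8 genes changed sign with the trend removed, being -0.08, against 0.05 as deposited. The medians of the lists for the 7SK particle (0.09), pausing factors (-0.04), other transcriptional kinases and cyclins (0.09), short-lived transcripts (-0.08) and long DNA damage response genes (0.03) also changed sign with that trend removed. The median of the super elongation complex was 0.02 at a minimum of 5 RPKM, and that of the other bromodomain genes was -0.02 with no minimum. The causes were not tested. No paired analysis was possible because the table holds no values of single libraries, and for the same reason no library could be left out and no other pseudocount tried.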
